A study of Homo sapiens with 15 samples.

Results

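Hypoxic A549 cells given BB2-162 were set against hypoxic A549 cells given BB2-282. The comparison used 3 arrays against 3 arrays, chosen by their labels, which makes 6 of the 15 arrays of the series, and it covered 16005 genes. The series measured total RNA of A549, an established human lung adenocarcinoma line, with whole-transcript arrays from Affymetrix, each culture on an array of its own. Its title concerns modulators of signalling by the hypoxia-inducible factor HIF, and its design text calls both compounds, known here only by code names, transcriptional inhibitors. The question addressed here is how the RNA of hypoxic cells differed between the 2 compounds at the same dose and time.

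In the first group, cells plated at 150000 per mL received 10 µM BB2-162 in 0.1% DMSO for 6 h and then spent 42 h more in a hypoxic gas-pack pouch. The second group was handled in the same way with 10 µM BB2-282. A hypoxic vehicle group of 3 cultures received 0.1% DMSO alone, and a normoxic vehicle group of 3 cultures received 0.1% DMSO without the pouch. The remaining 3 arrays were of hypoxic cultures given 10 µM BB2-125 in the same way. They entered the fit and the filter on dim values, but their levels are not described. Values of both vehicle groups are given beside the comparison to place it. No normoxic culture with a compound was analysed here, so compound and hypoxia cannot be separated. Cultures of a group are labelled biological replicates with no word on whether they were grown independently. The p-values therefore rest on the spread between these cultures, which may be technical.

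In hypoxia the oxygen-labile subunits HIF-1α (HIF1A) and HIF-2α (EPAS1) are stabilised and pair with ARNT. The pair binds hypoxia response elements and recruits the coactivators CBP (CREBBP) and p300 (EP300), which many other transcription factors also use. In lung carcinoma cells this switches on genes of glycolysis, blood vessel growth and collagen cross-linking.

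Values are intensities on the linear scale as deposited. Differences are log2 of BB2-162 minus log2 of BB2-282, given ± standard error, so that 1 on this scale is a 2-fold change. A gene was called when its adjusted p (limma, Benjamini-Hochberg over all 16005 genes) was under 0.05, and this was the only pair of compounds compared. All p-values below are adjusted in this way, and n is 3 arrays per group throughout.

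BB2-162 replicate 1 stood apart from the other 2 arrays of its group. It correlated with them at 0.978 and 0.979, against 0.989 between replicates 2 and 3, and its root-mean-square deviation from the group mean in log2 units was 0.221, whereas the other 5 arrays of the comparison had 0.0942 to 0.163. Counts over gene lists are therefore also given without it. The A549 epithelial markers were present: their summed intensity ran from 18821 to 23613 on BB2-162 arrays and from 19816 to 22794 on BB2-282 arrays. Of these 13 markers 1 was higher and 8 lower with BB2-162 (2 and 8 without replicate 1), beside 15.6% higher and 20.3% lower among all genes, at a median of -0.38. The higher one was the keratin gene KRT8, which had 8468, 7067 and 7109.6 with BB2-162, against 5447, 4963 and 5595 with BB2-282 (0.50 ± 0.10, adjusted p = 0.000664). Summed intensities of the 5 fibroblast markers above the filter on dim values ran from 511 to 600.0 with BB2-162 and from 514 to 553 with BB2-282, and none of the 5 was called by limma (1 higher and 0 lower at an unadjusted p under 0.05), whereas 2 were called higher without BB2-162 replicate 1. Of 7 leukocyte markers 1 was higher and 1 lower (1 and 1 without replicate 1), the lower being the lysosomal CD68. Of 7 endothelial markers 1 was higher (4 without replicate 1), and that call was lost with each array centred on its median. The part of other cells or of RNA quality in the results was not tested.

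The compounds left the cells with widely different RNA. Of 16005 genes, 5734 were called (35.8%), 2489 of them higher (15.6%) and 3245 lower (20.3%) with BB2-162 than with BB2-282. Every count over a gene list below has to be read beside these shares of all genes. In 5364 genes (33.5%) the call went with 3 arrays on each side that did not overlap. A change of at least 2-fold was called in 767 genes (4.79%), and these were mostly lower with BB2-162: 213 higher against 554 lower. Without BB2-162 replicate 1, 5258 of the 5734 calls were made again in the same direction.

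The split by direction moved with the scaling. Higher genes made up 43.4% of the calls on the deposited scale and 32.9% after each array was centred on its median, which shifted the median difference of all genes from 0.062 to 0.0024. On the arrays, the level taken as dim (the array's own 25th percentile) averaged 4.84 log2 with BB2-162 and 4.72 log2 with BB2-282. When genes were ordered by level and cut into 4 equal bins, 423 were higher and 249 lower with BB2-162 in the lowest bin, while in the highest bin 903 were higher and 1217 lower.

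Set against the hypoxic vehicle, BB2-162 left 2511 genes higher (15.7%) and 3269 lower (20.4%), while BB2-282 left 905 higher (5.65%) and 1271 lower (7.94%). Both comparisons use the same vehicle arrays, so their values are only set side by side below, to show which compound's level lay away from the vehicle.

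**Figure D1:**
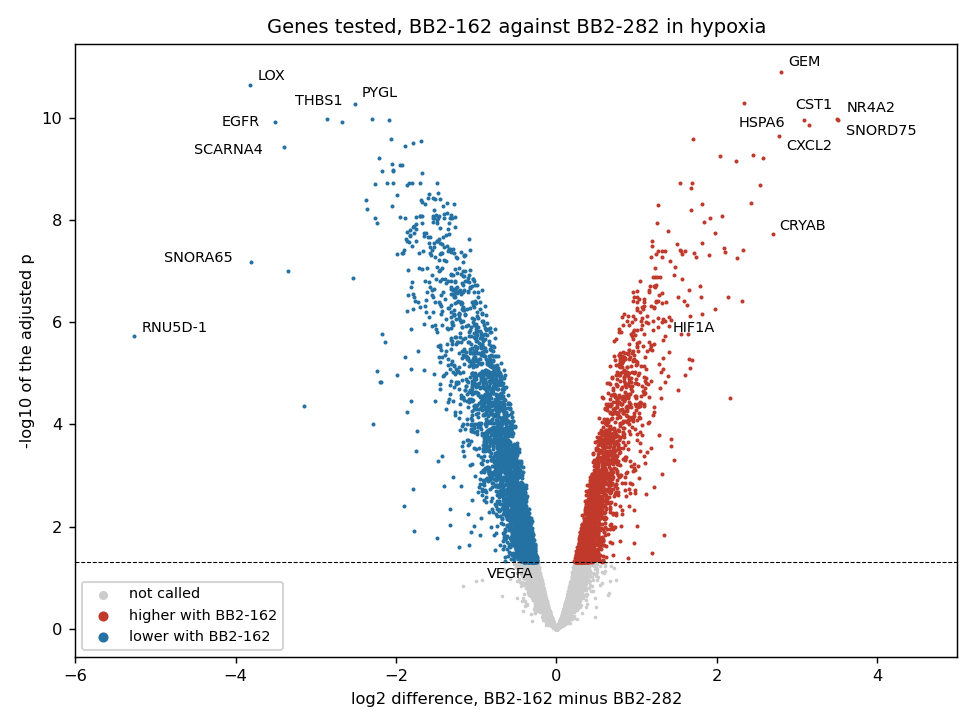
Each point is a gene, placed by its log2 difference (BB2-162 minus BB2-282, horizontal) and the -log10 of its adjusted p (vertical), with the dashed line at an adjusted p of 0.05. Of 16005 genes 2489 were called higher and 3245 lower with BB2-162, and the leading genes on either side are named.

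The widest rise among protein-coding genes was that of an immediate-early gene. NR4A2, an orphan nuclear receptor induced within minutes by many stimuli, had 2994, 1825 and 2356 with BB2-162, against 228, 212 and 181 with BB2-282, 296, 389.8 and 301 with hypoxic vehicle and 472, 593 and 432 with normoxic vehicle. All 3 BB2-162 arrays lay far above every other array shown. The difference was 3.51 ± 0.17 (adjusted p = 1.09e-10), an 11.4-fold level.

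Its relative NR4A1 moved the same way, with 2745, 2474 and 2964 under BB2-162 and 639.7, 591 and 508 under BB2-282, a difference of 2.24 ± 0.13 (adjusted p = 6.89e-10). FOS, a subunit of the AP-1 transcription factor, had 906, 854 and 1150.3 with BB2-162, against 192, 176 and 171 with BB2-282 and 427, 439 and 397 with hypoxic vehicle. For FOS the vehicle arrays lay between the compounds, 1.19 on the log2 scale separating BB2-162 from vehicle and -1.23 separating BB2-282 from it. KLF10, a zinc finger repressor induced by TGF-beta, differed by 1.68 ± 0.11 (adjusted p = 2.4e-09), and RGS2, which shortens G protein signalling, by 1.82 ± 0.12 (adjusted p = 4.81e-09).

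Of 26 immediate-early genes tested, 20 were higher with BB2-162 and 1 was lower (20 and 2 without replicate 1), beside 15.6% higher and 20.3% lower among all genes. Their median difference was 0.44, against 0.062 for all genes tested. The lower gene was FOSL2, another AP-1 subunit (-0.37, adjusted p = 0.00708), which like the single exceptions in the lists below was named after its values were seen. Against vehicle, 23 of them were higher with BB2-162 and 5 with BB2-282. GEM, a small GTPase that restrains calcium channels and the cytoskeleton, was another of the leading rises, with 1452, 1181 and 1294 under BB2-162, against 194, 187 and 179.7 under BB2-282 and 215, 179 and 205 with hypoxic vehicle. Its groups lay far apart, by 2.80 ± 0.11 (adjusted p = 1.27e-11), and with BB2-282 it did not pass the test against vehicle (-0.092, adjusted p = 0.677).

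Genes that damp the ERK kinase pathway also differed. Most of the listed genes encode phosphatases and adaptors that switch off ERK after it is activated. DUSP10, also in the list, encodes a phosphatase that acts mainly on the related stress kinases. Of 16 listed genes tested, 9 were higher with BB2-162 and 3 lower (10 and 3 without replicate 1), with a median of 0.46. The ERK phosphatase gene DUSP6 had 342, 240.4 and 225 with BB2-162, against 134, 119.7 and 115 with BB2-282. These arrays did not overlap, and BB2-162 replicate 1 was the highest. Dual-specificity phosphatases DUSP4 (0.96, adjusted p = 3.86e-07) and DUSP10 (1.10, adjusted p = 1.94e-05) and the receptor signalling inhibitor SPRY2 (0.98, adjusted p = 2.76e-05) moved alike, while SPRED1, an inhibitor of RAF activation, differed by -1.02 (adjusted p = 1.85e-07).

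Several neutrophil chemokine genes were higher with BB2-162. CXCL2, a ligand of the neutrophil receptor CXCR2, had 862, 1248 and 1257 with BB2-162, against 158, 171 and 155 with BB2-282, 199, 167 and 203 with hypoxic vehicle and 283, 283 and 224 with normoxic vehicle. Only the BB2-162 arrays stood out among these 12, and the difference between compounds was 2.78 ± 0.14 (adjusted p = 2.24e-10). CXCL1, a close relative that binds the same receptor, had 2602, 3269.9 and 3496 with BB2-162, against 1056, 1124 and 1016 with BB2-282, a difference of 1.54 ± 0.13 (adjusted p = 3.9e-08). CXCL1 and CXCL2 are near-copies of each other and of CXCL3, so probe sets may share signal between them.

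CCL20, which draws CCR6-bearing lymphocytes and dendritic cells, had 1178, 1242 and 1041 with BB2-162, against 267, 285 and 289.7 with BB2-282, 665, 578 and 649 with hypoxic vehicle and 22.2, 23.6 and 17.9 with normoxic vehicle. Here the compounds lay on opposite sides of the hypoxic vehicle, and the difference between them was 2.04 ± 0.11 (adjusted p = 5.74e-10). CXCL5 differed by 1.27 ± 0.086 (adjusted p = 5.02e-09) and CXCL8, also named interleukin 8, by 1.04 ± 0.15 (adjusted p = 3.58e-05). CCL2, which attracts monocytes instead, went the other way, with 615, 655 and 683 under BB2-162 and 1281, 1353 and 1602 under BB2-282 (-1.11 ± 0.15, adjusted p = 1.43e-05). Its vehicle arrays, at 672, 451 and 740.4, were near those of BB2-162. In all, 6 of 11 listed chemokines were higher and 1 lower (8 and 1 without replicate 1), with a median of 0.97.

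Chemokine promoters are shown because most of the list shared a motif. Promoter windows run from 250 bases before the start of the gene to 50 after it, from RefSeq (GRCh38.p14), and both strands were searched. For a gene with several starts, the window of lowest coordinate was kept. On the minus strand that is the most downstream start, so a window may miss the main promoter. The NF-kB motif was found in 6 of the 8 chemokine genes with a promoter in the table (75%), against 10.8% of all 27305 promoters and 12.9% of the 12502 promoters of tested genes. CXCL8 had 0 matches. Over all called genes the motif did not go with the rises, at 12.4% of promoters of higher genes and 14.3% of those of lower genes. A match is a description of the letters, not a site in use. The 250 bases before the start of both leading chemokines follow, 5′ to 3′, with matches in capitals; the 2 matches in each overlap.
CXCL2, chr4:74099196-74099445, GRCh38.p14, minus strand: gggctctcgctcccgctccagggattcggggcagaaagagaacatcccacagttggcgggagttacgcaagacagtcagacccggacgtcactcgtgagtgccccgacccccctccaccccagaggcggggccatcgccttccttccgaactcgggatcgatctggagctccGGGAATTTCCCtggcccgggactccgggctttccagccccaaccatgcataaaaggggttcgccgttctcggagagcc
CXCL1, chr4:73869143-73869392, GRCh38.p14, plus strand: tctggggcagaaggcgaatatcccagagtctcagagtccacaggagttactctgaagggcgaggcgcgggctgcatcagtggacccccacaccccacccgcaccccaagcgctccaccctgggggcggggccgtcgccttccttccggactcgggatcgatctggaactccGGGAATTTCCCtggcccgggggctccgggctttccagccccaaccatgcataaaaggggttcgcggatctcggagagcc

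Other NF-kB genes did not follow the chemokines. Of 21 subunits, inhibitors and targets of NF-kB, a transcription factor of inflammation and stress, 6 were higher and 8 lower with BB2-162 (5 and 8 without replicate 1), and the median was 0.022. The higher ones included TNFAIP3, a feedback inhibitor that trims ubiquitin chains, by 1.0 ± 0.18 (adjusted p = 0.000197), NFKBIZ, which encodes the nuclear protein IκBζ, by 0.76 ± 0.11 (adjusted p = 1.8e-05) and NFKBIA, which encodes the inhibitor IκBα, by 0.72 ± 0.088 (adjusted p = 4.6e-06). ICAM1, an adhesion molecule for leukocytes, had 181, 161 and 167 with BB2-162, against 436, 478 and 483 with BB2-282 and 116, 141 and 149 with hypoxic vehicle. For ICAM1 it was the BB2-282 arrays that stood above the rest, and the difference was -1.46 ± 0.10 (adjusted p = 8.5e-09). A list of 14 genes of IL6 family cytokines and receptors also held IL1A and IL1B, which belong to the IL1 family. Of the 14, 1 was higher, IL11, by 1.17 ± 0.11 (adjusted p = 1.93e-07), and 5 were lower (1 and 6 without replicate 1). The lower ones were the receptor genes OSMR (-2.26), LIFR (-0.90) and IL6ST (-0.60), together with IL1A (-1.34) and IL1B (-0.54).

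Heat shock genes formed a further group of rises. HSPA6 encodes an HSP70 chaperone that is nearly silent without stress, and it had 468, 435 and 475 with BB2-162, against 59.2, 43.2 and 62.2 with BB2-282, 62.9, 53.5 and 64.4 with hypoxic vehicle and 59.9, 42.6 and 66.2 with normoxic vehicle. Only the BB2-162 arrays stood out, all of them far above the rest, with a difference of 3.08 ± 0.15 between compounds (adjusted p = 1.1e-10). HSPA6 has close copies in the HSP70 family, so its signal may be shared. CRYAB, a small heat shock protein, had 1294, 1162 and 1161 with BB2-162, against 189, 183 and 186 with BB2-282 and 223, 313 and 154 with hypoxic vehicle, a difference of 2.69 ± 0.21 (adjusted p = 1.85e-08).

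The HSP70 partner HSPH1 differed by 1.81 ± 0.14 (adjusted p = 2.85e-08), the cochaperone DNAJB1 by 1.26 ± 0.12 (adjusted p = 3.78e-07) and the adaptor STIP1 by 0.83 ± 0.090 (adjusted p = 1.15e-06). HSP90AA1, the inducible HSP90, had 1562, 1312 and 1590.4 with BB2-162, against 638, 638 and 693 with BB2-282, 798, 976 and 745 with hypoxic vehicle and 4300.4, 4704 and 4361 with normoxic vehicle. BB2-162 arrays were thus above both other hypoxic groups shown for HSP90AA1 and below normoxic vehicle. Of 23 genes of heat shock proteins and cytosolic chaperones, 15 were higher and 1 lower (15 and 1 without replicate 1), with a median of 0.67, the widest upward median but for that of the chemokines among the lists described here. The lower gene was HSF1 (-0.41, adjusted p = 0.00531), the main transcription factor of the heat shock response. Against vehicle, 11 were higher with BB2-162, and 7 were lower with BB2-282.

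The heat shock element unit GAANNTTC occurred in 11 of 20 promoters of this list (55%), against 6.96% of all promoters and 5.04% of those of tested genes, on either strand of the same windows. Over all called genes it was in 5.13% of the promoters of higher genes and 4.33% of those of lower genes. In DNAJB1 the match lies after the start of the gene. Promoters of HSPA6 and HSP90AA1 are shown with the unit in capitals, as examples with matches before the start.
HSPA6, chr1:161524290-161524539, GRCh38.p14, plus strand: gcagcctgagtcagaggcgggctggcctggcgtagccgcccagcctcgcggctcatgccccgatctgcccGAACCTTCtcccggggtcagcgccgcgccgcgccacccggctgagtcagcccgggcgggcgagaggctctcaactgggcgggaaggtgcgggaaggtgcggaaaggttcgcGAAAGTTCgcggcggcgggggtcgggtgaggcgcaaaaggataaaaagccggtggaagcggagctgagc
HSP90AA1, chr14:102087045-102087294, GRCh38.p14, minus strand: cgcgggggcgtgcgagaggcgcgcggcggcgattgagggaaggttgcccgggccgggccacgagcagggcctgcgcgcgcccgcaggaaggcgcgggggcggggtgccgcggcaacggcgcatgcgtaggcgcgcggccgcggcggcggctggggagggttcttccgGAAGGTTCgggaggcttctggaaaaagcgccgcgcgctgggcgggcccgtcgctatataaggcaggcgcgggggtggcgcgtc

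**Figure D2:**
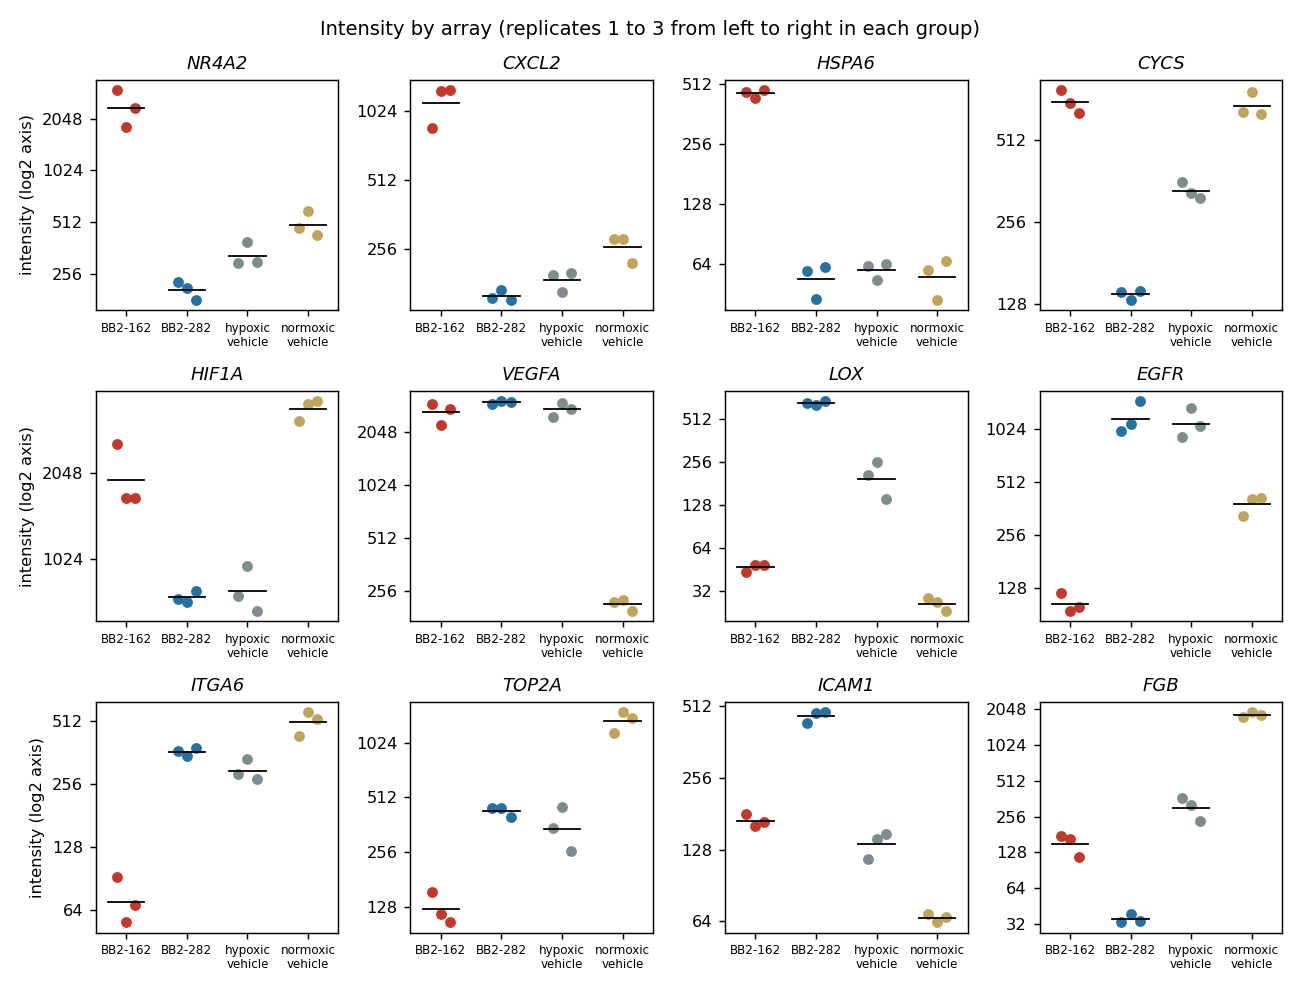
Intensity on a log2 axis of 12 genes on each array of 4 groups, from left BB2-162, BB2-282, hypoxic vehicle and normoxic vehicle; points are replicates 1 to 3 and lines are geometric means. BB2-162 arrays stood above the other hypoxic arrays shown for NR4A2, CXCL2, HSPA6, CYCS and HIF1A and below them for LOX, EGFR, ITGA6 and TOP2A. ICAM1 stood out with BB2-282, and VEGFA lay between 2233 and 3033 in all hypoxic groups shown.

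Genes of the HIF pathway did not move as a block. HIF1A itself had 2573, 1673 and 1668 with BB2-162, against 746, 724 and 793 with BB2-282, 764, 970.1 and 676 with hypoxic vehicle and 3090.2, 3566 and 3629 with normoxic vehicle. BB2-162 arrays were above the other hypoxic arrays shown and below the normoxic ones, and the difference between compounds was 1.36 ± 0.15 (adjusted p = 1.84e-06). The array measures HIF1A RNA, not HIF-1α protein, which is controlled mainly by its stability.

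EPAS1 differed by -0.41 ± 0.12 (adjusted p = 0.0129), a call that was lost without BB2-162 replicate 2 (adjusted p = 0.0882) or BB2-282 replicate 3 (adjusted p = 0.0549). For ARNT the difference was -0.25 ± 0.11 (95% interval -0.47 to -0.024; adjusted p = 0.0788), and it passed the test without BB2-162 replicate 1 (-0.38, adjusted p = 0.00401). Both coactivators were lower. CREBBP had 461, 272 and 398 with BB2-162, against 869, 1025 and 939 with BB2-282 and 677, 882 and 802 with hypoxic vehicle. EP300 had 302, 185 and 253 with BB2-162, against 456, 511 and 556 with BB2-282 and 348, 489.6 and 385 with hypoxic vehicle. In each gene the BB2-162 arrays lay below all BB2-282 arrays, with differences of -1.36 ± 0.17 for CREBBP (adjusted p = 5.32e-06) and -1.07 ± 0.19 for EP300 (adjusted p = 0.000212).

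CITED2, which competes with HIF-1α for p300 and CBP and is itself a HIF target, had 2529, 2019 and 2190.3 with BB2-162, against 1229, 1242 and 1197 with BB2-282 and 1195, 1545 and 1339 with hypoxic vehicle, a difference of 0.87 ± 0.11 (adjusted p = 9.3e-06). EGLN3, a HIF-induced prolyl hydroxylase that marks HIF-α for breakdown, had 278, 239 and 289 with BB2-162, against 655, 624 and 679 with BB2-282 and 1376, 1675 and 1206 with hypoxic vehicle. Both compounds were below vehicle for EGLN3, with differences of -2.39 for BB2-162 and -1.11 for BB2-282, and BB2-162 was the lower of the 2 (-1.28 ± 0.12, adjusted p = 2.32e-07). Of 14 HIF subunits, oxygen sensors and coactivators, 3 were higher and 6 lower (4 and 7 without replicate 1).

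Several of the best known HIF targets did not pass the test between compounds. VEGFA, the main growth factor of blood vessels, had 2934, 2233 and 2761 with BB2-162, against 2935, 3033 and 3000.2 with BB2-282, 2483, 2971 and 2751 with hypoxic vehicle and 222, 229.9 and 198 with normoxic vehicle. The hypoxic groups shown shared 1 range, far above normoxia, and the difference between compounds was -0.19 (95% interval -0.42 to 0.044; adjusted p = 0.195). The chemokine receptor gene CXCR4 differed by -0.070 (95% interval -0.35 to 0.21; adjusted p = 0.705). SLC2A1, the glucose transporter GLUT1, differed by -0.17 (95% interval -0.39 to 0.062; adjusted p = 0.241) and passed the test without BB2-162 replicate 1 (-0.29, adjusted p = 0.0214). These intervals bound the differences and do not show that the compounds act alike.

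LOX, a secreted oxidase that cross-links collagen and is induced by HIF, was the widest fall among protein-coding genes. It had 43.3, 48.5 and 48.3 with BB2-162, against 656, 643 and 677 with BB2-282, 205, 255 and 141 with hypoxic vehicle and 28.2, 26.8 and 23.0 with normoxic vehicle. The compounds lay on opposite sides of the hypoxic vehicle, BB2-162 at -2.06 and BB2-282 at 1.76 from it, and the difference between them was -3.82 ± 0.16 (adjusted p = 2.31e-11), a 14.1-fold higher level with BB2-282. The 250 bases before an annotated LOX start are shown, with a single match to the hypoxia response element core ACGTG. Of the promoters of tested genes, 24.6% also hold this core. LOX lies on the minus strand, where the start of lowest coordinate is the most downstream. The window lies inside the gene, since its first bases read as LOX coding sequence up to what looks like the end of an exon. It does not show the main LOX promoter, and the match is not placed there.
LOX, chr5:122077175-122077424, GRCh38.p14, minus strand: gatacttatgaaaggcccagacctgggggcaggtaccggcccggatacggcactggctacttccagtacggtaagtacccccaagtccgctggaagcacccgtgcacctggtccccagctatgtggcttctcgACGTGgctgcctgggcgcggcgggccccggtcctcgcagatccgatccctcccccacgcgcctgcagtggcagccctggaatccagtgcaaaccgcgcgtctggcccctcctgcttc

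Its relative LOXL2, another collagen cross-linking oxidase, differed by -1.67 ± 0.11 (adjusted p = 4.49e-09), with 1726, 1259 and 1443 under BB2-162 and 4616, 4532 and 4865 under BB2-282. PLOD2, which hydroxylates the collagen lysines that LOX enzymes use, differed by -1.27 ± 0.12 (adjusted p = 3.2e-07), and the proline hydroxylase P4HA2 by -1.03 ± 0.11 (adjusted p = 1.15e-06). Of 15 genes of collagen modification and cross-linking, 0 were higher and 8 lower with BB2-162 (0 and 10 without replicate 1), at a median of -0.36; at an unadjusted limma p under 0.05, 0 were higher. Against vehicle, 10 were lower with BB2-162, and 3 were higher with BB2-282.

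Other HIF-induced genes split. PDGFB, a growth factor for pericytes, had 185, 193 and 211 with BB2-162, against 787, 918 and 799.6 with BB2-282 and 291, 313 and 353 with hypoxic vehicle, so that both compounds' arrays were clear of the vehicle's on opposite sides (-2.08 ± 0.10, adjusted p = 1.1e-10). ANGPTL4, an inhibitor of lipoprotein lipase, differed by -1.20 ± 0.16 (adjusted p = 9.95e-06), and the secreted glycoprotein STC2 by -0.89 ± 0.12 (adjusted p = 9.55e-06). ADM, which encodes the vasodilator adrenomedullin, was higher by 0.78 ± 0.10 (adjusted p = 1.1e-05). Of 19 HIF-induced secreted and signalling genes, 3 were higher and 5 lower (3 and 5 without replicate 1). Among all genes 15.6% were higher and 20.3% lower, so the counts of this list lay near the shares of all genes. Of 21 HIF-induced survival, pH and feedback genes, 9 were higher and 4 lower (8 and 5 without replicate 1). DDIT4, an inhibitor of mTORC1, was among the higher (0.53 ± 0.085, adjusted p = 7.54e-05), as was ANKRD37 (0.85 ± 0.13, adjusted p = 3.46e-05), while TMEM45A was lower (-0.98 ± 0.11, adjusted p = 1.51e-06).

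In glucose metabolism most called genes were lower with BB2-162. PYGL, which releases glucose from glycogen, had 731, 544 and 599 with BB2-162, against 3523, 3484 and 3601 with BB2-282, 2306, 2833 and 2245 with hypoxic vehicle and 422, 459 and 433 with normoxic vehicle. BB2-162 arrays lay nearer to the normoxic arrays than those of the other hypoxic groups shown did, and the difference between compounds was -2.51 ± 0.11 (adjusted p = 5.37e-11). PFKP, a phosphofructokinase, differed by -1.31 ± 0.15 (adjusted p = 2.22e-06) and the glycogen branching enzyme GBE1 by -0.78 ± 0.13 (adjusted p = 0.000175). The list of 21 genes of glycolysis and glucose uptake also held the glycogen enzyme genes PYGL, GBE1 and GYS1, and PDK1. Of these 21, 9 were lower and 1 was higher (12 and 1 without replicate 1), with PYGL, GBE1 and GYS1 among the lower. The higher member was PDK1 (0.78 ± 0.14, adjusted p = 0.000363), a HIF-induced kinase that keeps pyruvate from mitochondria.

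PDK4, a starvation-induced relative of PDK1, had 448, 372 and 374 with BB2-162, against 75.2, 65.6 and 59.6 with BB2-282, 150.3, 144 and 94.0 with hypoxic vehicle and 2307, 2709 and 2515 with normoxic vehicle. It was far lower in every hypoxic group shown than in normoxia, and BB2-162 was the highest of those hypoxic groups (2.58 ± 0.15 between compounds, adjusted p = 6.13e-10). CYCS, the cytochrome c of the respiratory chain, had 777, 699 and 643 with BB2-162, against 142, 132 and 143 with BB2-282, 357, 327 and 312 with hypoxic vehicle and 645, 768 and 634 with normoxic vehicle. For CYCS the BB2-162 arrays lay at the normoxic level while BB2-282 lay below vehicle (2.34 ± 0.10, adjusted p = 5.12e-11). CYCS has many processed pseudogenes, so its signal is uncertain. Among 26 genes of the respiratory chain and ATP synthase 9 were higher and 6 lower (10 and 6 without replicate 1).

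**Figure D3:**
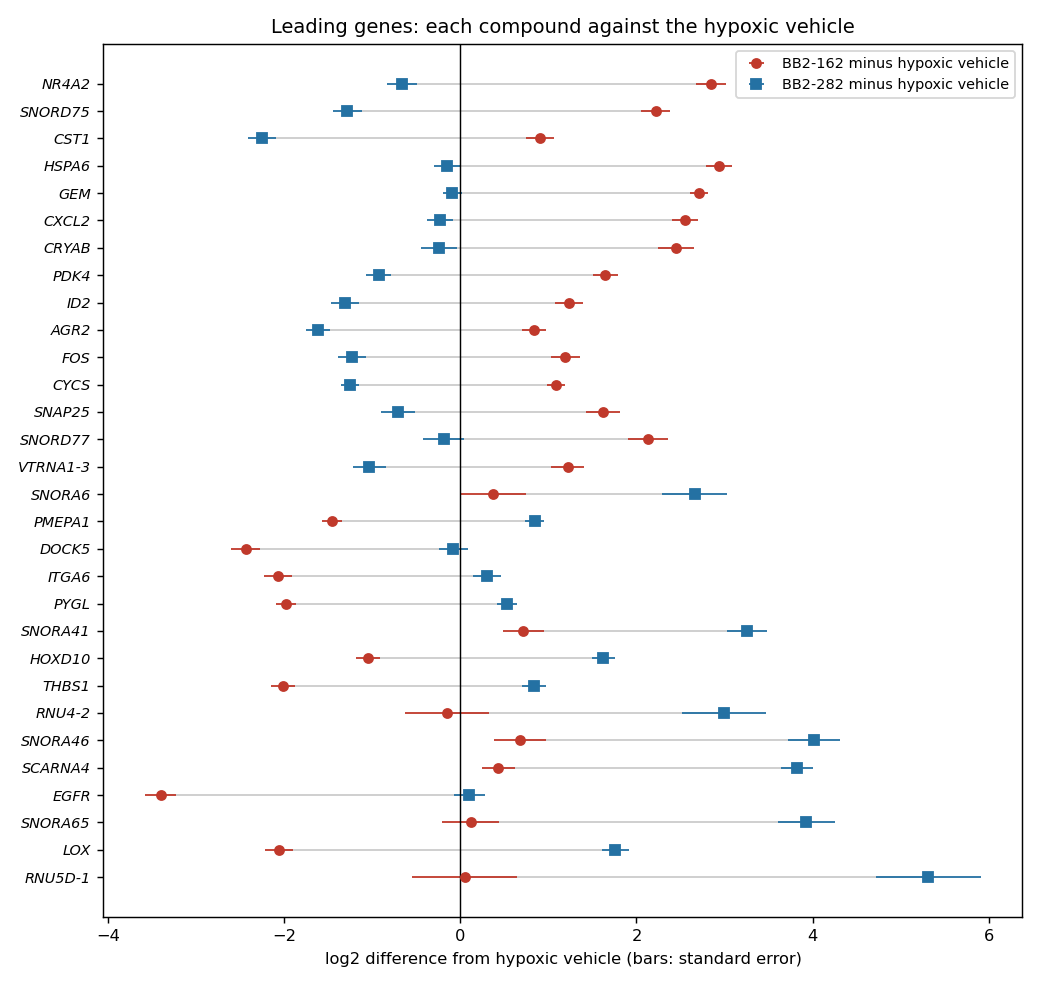
For the 15 widest rises (top) and 15 widest falls (bottom) between the compounds, the log2 difference of each compound from the hypoxic vehicle with its standard error, circles for BB2-162 and squares for BB2-282; both share the 3 vehicle arrays. GEM, HSPA6 and EGFR lay far from the vehicle with BB2-162, RNU5D-1 and SNORA65 with BB2-282, and LOX, FOS and THBS1 lay on opposite sides of it.

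Of 18 growth factor receptor genes tested, 9 were lower with BB2-162 and the other 9 were not called. EGFR, the epidermal growth factor receptor and an oncogene of lung adenocarcinoma, had 119.6, 94.7 and 99.4 with BB2-162, against 1008, 1101 and 1479.9 with BB2-282, 924, 1349 and 1069 with hypoxic vehicle and 329, 411 and 418 with normoxic vehicle. BB2-162 arrays were below every array of the other groups shown, including the normoxic ones. The difference between compounds was -3.50 ± 0.17 (adjusted p = 1.22e-10), an 11.3-fold higher level with BB2-282, which did not pass the test against vehicle (0.10, adjusted p = 0.807).

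MET, the receptor of hepatocyte growth factor, had 792, 449.6 and 577 with BB2-162, against 1254, 1334 and 1515 with BB2-282 and 1529, 2272 and 1471 with hypoxic vehicle. The BB2-162 arrays lay below all others of these groups although they were spread widely, and the BB2-282 and vehicle arrays overlapped (-1.21 ± 0.19, adjusted p = 7.44e-05). FGFR1 differed by -1.21 ± 0.11 (adjusted p = 2.31e-07), AXL by -0.86 ± 0.14 (adjusted p = 9.17e-05), the insulin receptor gene INSR by -0.75 ± 0.10 (adjusted p = 1.71e-05) and ERBB2 by -0.48 ± 0.094 (adjusted p = 0.000574). Of 18 receptor tyrosine kinases 0 were higher and 9 lower (2 and 10 without replicate 1), at a median of -0.33; at an unadjusted limma p under 0.05, 3 were higher. EREG, which encodes the EGFR ligand epiregulin, went the other way, with 1599.8, 886 and 937 under BB2-162, against 262, 296 and 281 under BB2-282 and 276, 303 and 184 with hypoxic vehicle. Its BB2-162 arrays lay above all the others of these groups (1.98 ± 0.20, adjusted p = 5.45e-07). HBEGF, another EGFR ligand, differed by 0.022 (95% interval -0.25 to 0.30; adjusted p = 0.905), both compounds being above vehicle. Of 6 ligands 1 was higher and 1 lower (2 and 1 without replicate 1). DOCK5, an activator of the GTPase Rac, was likewise far lower (-2.36 ± 0.16, adjusted p = 6.14e-09).

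Integrins and laminins, which hold epithelial cells to their basement membrane, gave the strongest downward median of the lists described here, -0.89. Of 16 tested, 0 were higher and 13 lower with BB2-162 (0 and 14 without replicate 1), against a background of 20.3% lower; at an unadjusted limma p under 0.05, 0 were higher. ITGA6 had 92.0, 56.1 and 67.4 with BB2-162, against 368, 348 and 381 with BB2-282 and 284, 337 and 270.5 with hypoxic vehicle. Its partner in hemidesmosomes, ITGB4, had 832, 539 and 665 with BB2-162, against 3093, 2979.5 and 3531 with BB2-282 and 2707, 3353 and 2773 with hypoxic vehicle. In both genes the BB2-162 arrays stood below all others of these groups, with differences between compounds of -2.38 ± 0.16 for ITGA6 (adjusted p = 4.02e-09) and -2.26 ± 0.14 for ITGB4 (adjusted p = 1.95e-09). ITGAV (-1.87), ITGA2 (-1.84) and the laminin chain LAMC1 (-1.59) were lower as well, with adjusted p of 2.52e-08, 9.73e-08 and 2.78e-08.

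Most listed genes of the TGF-beta response were lower in turn. Of 23 tested, 1 was higher and 17 were lower (0 and 18 without replicate 1), at a median of -0.56. The higher gene was ZEB1 (0.56, adjusted p = 0.0194), a repressor of epithelial genes. The receptor gene TGFBR1 had 368, 329.7 and 337 with BB2-162, against 1203, 1356 and 1458 with BB2-282 and 833, 957 and 896 with hypoxic vehicle. The vehicle lay between the compounds, which differed by -1.95 ± 0.11 (adjusted p = 8.4e-10). PMEPA1, a TGF-beta target that damps the pathway, had 527, 531 and 588 with BB2-162, against 2537, 2773 and 2786 with BB2-282 and 1385, 1593 and 1541 with hypoxic vehicle, again on either side of vehicle (-2.30 ± 0.11, adjusted p = 1.08e-10). THBS1, thrombospondin 1, which releases latent TGF-beta and restrains vessel growth, had 137, 93.2 and 116 with BB2-162, against 732, 879 and 880.0 with BB2-282 and 418, 499 and 473 with hypoxic vehicle. It followed the same order (-2.86 ± 0.14, adjusted p = 1.08e-10).

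TAGLN, an actin-binding protein of contractile cells, had 213, 198 and 197 with BB2-162, against 420.3, 499 and 531 with BB2-282 and 202, 184 and 206 with hypoxic vehicle. Here it was BB2-282 that stood apart (-1.25 ± 0.10, adjusted p = 5.29e-08), since BB2-162 did not pass the test against vehicle (0.038, adjusted p = 0.785). SKIL, a repressor of SMAD signalling, differed by -1.62 ± 0.16 (adjusted p = 3.72e-07), and the inhibitory SMAD6 by -1.01 ± 0.10 (adjusted p = 3.78e-07). HOXD10, a homeobox factor of body patterning, had 69.5, 81.3 and 89.9 with BB2-162, against 532, 499.9 and 495 with BB2-282, 159, 187 and 150.4 with hypoxic vehicle and 49.2, 41.6 and 40.0 with normoxic vehicle, and the compounds differed by -2.67 ± 0.13 (adjusted p = 1.21e-10). HMOX1, heme oxygenase 1, differed by -1.60 ± 0.11 (adjusted p = 3.8e-09), with BB2-162 at -0.53 and BB2-282 at 1.07 relative to vehicle. Among the epithelial markers that were lower was DSP of desmosomes (-1.29 ± 0.19, adjusted p = 3.41e-05).

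Mitotic genes were lower with BB2-162 almost throughout. Of 31 tested, 25 were lower and 1 was higher (28 and 0 without replicate 1), at a median of -0.67. The higher gene was MAD2L1 (0.52, adjusted p = 0.0267), a spindle checkpoint protein. TOP2A, a topoisomerase that untangles chromosomes before division, had 155, 116 and 105 with BB2-162, against 449.8, 449 and 402 with BB2-282, 349, 451 and 259.5 with hypoxic vehicle and 1154, 1501 and 1407 with normoxic vehicle. It was thus already far lower in hypoxia than in normoxia, and of the groups shown it was lowest with BB2-162 (-1.81 ± 0.17 between compounds, adjusted p = 2.07e-07).

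PLK1, a kinase that drives entry into mitosis, differed by -1.29 ± 0.10 (adjusted p = 3.69e-08), ANLN, a scaffold of the cleavage furrow, by -1.77 ± 0.17 (adjusted p = 3.2e-07), TPX2, a spindle assembly factor, by -1.21 ± 0.12 (adjusted p = 2.45e-07) and cyclin A2 (CCNA2) by -1.09 ± 0.13 (adjusted p = 2.41e-06). In bulk cultures fewer dividing cells and less RNA per cell cannot be told apart. Cyclin D1 (CCND1), which starts the cycle, had 757, 701 and 763 with BB2-162, against 1595, 1514 and 1626 with BB2-282 and 1099, 1106 and 1142 with hypoxic vehicle, on either side of vehicle (-1.09 ± 0.085, adjusted p = 2.38e-08). The 38 genes of DNA replication and G1/S were split, with 5 higher and 12 lower (4 and 11 without replicate 1).

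Core histone genes went against the mitotic ones. Of 42 tested, 23 were higher and 1 was lower with BB2-162 (27 and 0 without replicate 1), at a median of 0.45. The lower gene was H2AC6 (-0.33, adjusted p = 0.0252). H2BC14 had 555, 671 and 600.1 with BB2-162, against 274, 254 and 186 with BB2-282, 169, 173 and 184 with hypoxic vehicle and 4467, 3772 and 4171 with normoxic vehicle. Its BB2-162 arrays were above both other hypoxic groups shown and far below normoxia (1.37 ± 0.14, adjusted p = 3.97e-07). H3C1 differed by 1.35 ± 0.18 (adjusted p = 1.46e-05) and H2BC13 by 0.98 ± 0.10 (adjusted p = 8.51e-07). Histone genes within a family are near-identical, so these probe sets may share signal.

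Splicing factors and proteasome subunits showed smaller rises. TRA2A, which promotes exon inclusion, had 951, 711 and 819.6 with BB2-162, against 256, 262 and 327 with BB2-282 and 427, 407 and 337 with hypoxic vehicle. The groups did not overlap and differed by 1.55 ± 0.13 (adjusted p = 4.12e-08), SRSF1 by 1.27 ± 0.10 (adjusted p = 4.12e-08) and TRA2B by 1.05 ± 0.10 (adjusted p = 1.54e-07). Of 25 SR and hnRNP genes 13 were higher and 0 lower (11 and 3 without replicate 1). Of 28 proteasome subunit genes 15 were higher and 0 lower (12 and 2 without replicate 1, 10 and 3 with each array centred on its median). At an unadjusted limma p under 0.05, 3 splicing and 3 proteasome genes were lower. The lid subunit gene PSMD14 was among the higher (0.79 ± 0.14, adjusted p = 0.000181). Both lists had a median of about the same size, 0.34 for splicing factors and 0.34 for the proteasome.

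**Figure D4:**
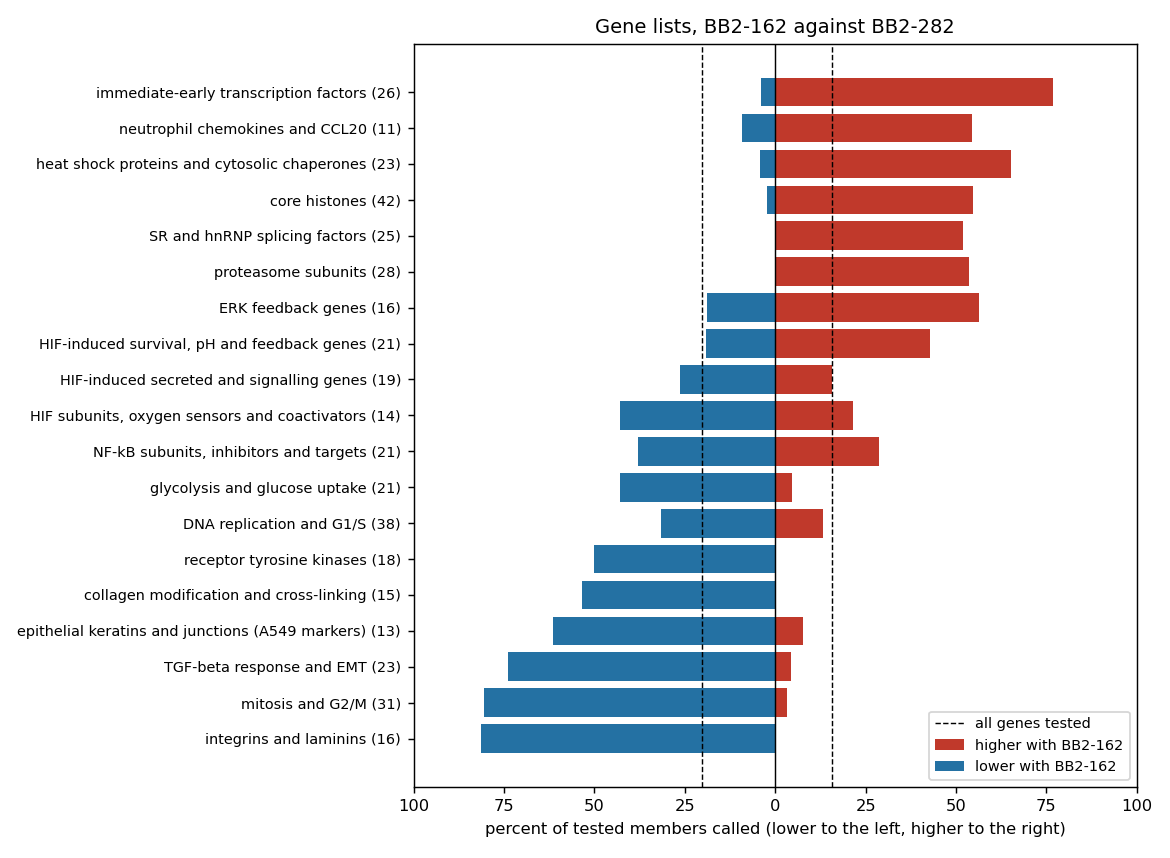
For 19 gene lists, the percent of tested members called higher (right) and lower (left) with BB2-162 than with BB2-282, with the number tested in brackets; dashed lines mark all genes tested, 15.6% higher and 20.3% lower. Immediate-early genes (20 of 26 higher) and integrins and laminins (13 of 16 lower) lie near opposite ends.

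Some of the widest differences were in genes that were low with BB2-282 and lowered by hypoxia. CST1, a secreted inhibitor of cysteine proteases, had 1724, 1711 and 1349.7 with BB2-162, against 174, 165 and 196 with BB2-282, 927, 909 and 727 with hypoxic vehicle and 4645, 3695 and 3708 with normoxic vehicle. BB2-282 lay far below vehicle and BB2-162 somewhat above it, a difference of 3.15 ± 0.16 (adjusted p = 1.38e-10). ID2, an inhibitor of basic helix-loop-helix factors, had 765, 605 and 543 with BB2-162, against 123, 98.0 and 106 with BB2-282, 271, 351 and 204 with hypoxic vehicle and 1074, 1107 and 1132 with normoxic vehicle. AGR2, a disulphide isomerase of secretory epithelia, had 1442, 1730.2 and 1334 with BB2-162, against 275, 278 and 265 with BB2-282, 945, 787 and 793 with hypoxic vehicle and 3054, 2862 and 2556 with normoxic vehicle.

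The order of groups was the same in ID2 (2.54 ± 0.16, adjusted p = 2.1e-09), AGR2 (2.45 ± 0.14, adjusted p = 5.43e-10) and SNAP25, a membrane fusion protein (2.33 ± 0.19, adjusted p = 3.96e-08): normoxic vehicle highest, then BB2-162, hypoxic vehicle and BB2-282. FGB, the fibrinogen beta chain, had 175, 164 and 118 with BB2-162, against 33.1, 39.1 and 33.7 with BB2-282, 366, 321 and 235 with hypoxic vehicle and 1759.9, 1928 and 1824 with normoxic vehicle. Both compounds lay below vehicle for FGB, BB2-282 by more (2.09 ± 0.17 between compounds, adjusted p = 3.56e-08).

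Small non-coding RNAs made up 10 of the 30 leading genes. Spliceosomal RNAs build the splicing machinery, Cajal body RNAs guide their modification, and box C/D and box H/ACA small nucleolar RNAs guide methylation and pseudouridylation of ribosomal RNA. Small nucleolar RNAs come mostly from introns, and many RNAs of these classes have close copies, so the signal of single genes is uncertain. A gene passed the filter on dim values if it was above that level on 3 of the 15 arrays, which a single group could provide, so counts in these lists do not cover all members; of all 16005 genes, 2 were above the level only with BB2-162 and 2 only with BB2-282.

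RNU5D-1, a U5 spliceosomal RNA, had 8.45, 28.2 and 14.2 with BB2-162, against 714, 948 and 284 with BB2-282, 15.2, 15.97 and 12.6 with hypoxic vehicle and 11.5, 19.7 and 16.7 with normoxic vehicle. Of the arrays shown, only those of BB2-282 rose above the dim level, and they were widely spread. Among these groups RNU5D-1 thus passed the filter only through the group where it was high, and its p-value carries that limit. With BB2-162 read at the dim level, RNU5D-1 was at least 20.2-fold lower with BB2-162 than with BB2-282 (adjusted p of the fit = 1.85e-06). Other genes dim in a single group are given in the same way. SNORA65, an H/ACA RNA, had 101, 298 and 252 with BB2-162, against 3331, 3261 and 1932 with BB2-282 and 163, 156 and 235 with hypoxic vehicle. SCARNA4, a Cajal body RNA, had 61.1, 73.3 and 55.1 with BB2-162, against 632, 638 and 707 with BB2-282 and 50.5, 49.0 and 40.7 with hypoxic vehicle. Again it was BB2-282 that lay above vehicle, in SNORA65 by 3.93 and in SCARNA4 by 3.82, and the compounds differed by -3.81 ± 0.33 (adjusted p = 6.54e-08) and -3.39 ± 0.19 (adjusted p = 3.77e-10).

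Further H/ACA RNAs followed, SNORA46 (-3.34 ± 0.29, adjusted p = 9.98e-08), SNORA41 (-2.54 ± 0.23, adjusted p = 1.38e-07) and SNORA6 (-2.29 ± 0.37, adjusted p = 9.77e-05), as did the U4 RNA gene RNU4-2 (-3.15 ± 0.47, adjusted p = 4.44e-05) and its near-copy RNU4-1 (-1.86 ± 0.29, adjusted p = 5.62e-05). Of 54 H/ACA RNAs above the filter, 3 were higher and 20 lower with BB2-162 (6 and 17 without replicate 1). Against vehicle, 11 of the 54 were higher with BB2-162 and 19 with BB2-282.

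Among C/D RNAs more of the called genes were higher than lower. SNORD75, from an intron of the non-coding host gene GAS5, had 974, 929 and 758 with BB2-162, against 79.7, 85.8 and 69.0 with BB2-282, 224, 166 and 183 with hypoxic vehicle and 177, 229 and 142 with normoxic vehicle. The BB2-282 arrays lay below and the BB2-162 arrays above both vehicle groups (3.50 ± 0.16, adjusted p = 1.04e-10). SNORD77, another GAS5 intron RNA, was dim with BB2-282 and at least 2.60-fold higher with BB2-162 (adjusted p of the fit = 3.87e-07). SNORD58A (1.69 ± 0.21, adjusted p = 5.48e-06) and SNORD14E (1.61 ± 0.21, adjusted p = 1.08e-05) were also higher. Of 84 C/D RNAs above the filter, 20 were higher and 7 lower; without BB2-162 replicate 1 the counts were 38 and 6.

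Among 33 spliceosomal, Cajal body and vault RNAs, 7 were higher and 13 lower (11 and 10 without replicate 1, and 4 and 13 with each array centred on its median). VTRNA1-3, a vault RNA, had 2321, 4159.6 and 3873 with BB2-162, against 745, 759 and 615 with BB2-282 and 1362, 1623 and 1345 with hypoxic vehicle. It was among the widest rises (2.25 ± 0.19, adjusted p = 5.57e-08), with BB2-162 replicate 1 the lowest of its group. SCARNA9 was higher as well (0.95 ± 0.19, adjusted p = 0.00082).

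**Figure D5:**
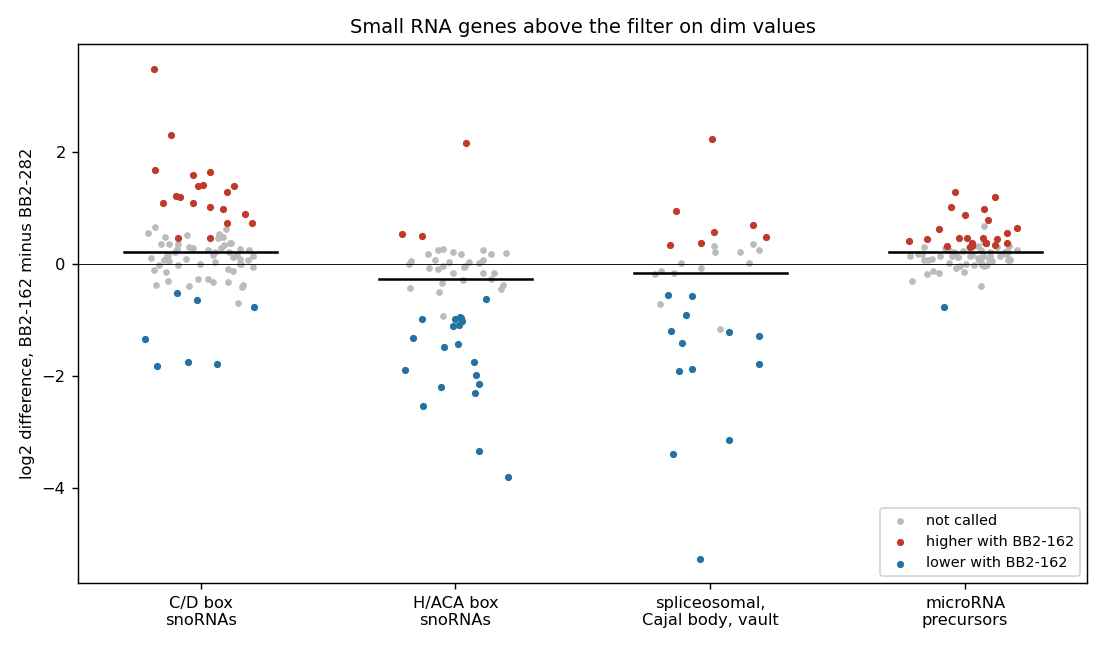
Each point is a small RNA gene above the filter on dim values, placed by its log2 difference (BB2-162 minus BB2-282) in 4 classes, with host genes of microRNAs left out; horizontal bars are class medians and grey points were not called. In the H/ACA class 20 were lower and 3 higher, and in the C/D class 7 were lower and 20 higher.

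MicroRNA genes were mostly dim. Of 82 microRNA precursors above the filter, 24 were higher and 1 lower with BB2-162 (33 and 1 without replicate 1), and of the 95 genes in the list with host genes added, 48 were in the lowest of the 4 level bins, where more genes were higher than lower over the whole array. The array measures precursor or primary transcripts, not the mature microRNA. The mature sequences of precursors named here are shown to place them in families, from RefSeq, with the seed (bases 2 to 8) in capitals; a mature sequence was found for 78 of the 95 genes.
hsa-miR-221-3p, chrX:45746180-45746202, GRCh38.p14, minus strand: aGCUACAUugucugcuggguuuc
hsa-miR-222-3p, chrX:45747036-45747056, GRCh38.p14, minus strand: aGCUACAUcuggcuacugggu
hsa-miR-15b-5p, chr3:160404607-160404628, GRCh38.p14, plus strand: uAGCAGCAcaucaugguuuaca
hsa-miR-193a-3p, chr17:31560050-31560071, GRCh38.p14, plus strand: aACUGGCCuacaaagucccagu
hsa-miR-125b-5p, chr11:122099809-122099830, GRCh38.p14, minus strand: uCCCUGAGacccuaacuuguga
hsa-miR-21-5p, chr17:59841273-59841294, GRCh38.p14, plus strand: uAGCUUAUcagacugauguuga

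The first pair share a seed, and their genes are neighbours on chromosome X. MIR222 was dim with BB2-282 and at least 1.24-fold higher with BB2-162 (adjusted p of the fit = 5.63e-06). MIR221, named for its shared seed after its values were seen, differed by 1.21 (adjusted p = 6.56e-05). MIR15B had 52.7, 60.7 and 71.7 with BB2-162, against 23.8, 21.7 and 30.1 with BB2-282, where it too was dim, and was at least 2.32-fold higher with BB2-162 (adjusted p of the fit = 1.94e-05). MIR193A was higher by 0.79 ± 0.12 (adjusted p = 5.13e-05) and MIR125B1 by 0.64 ± 0.10 (adjusted p = 3.98e-05).

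MIR21, a precursor abundant in carcinoma, was the exception among the precursors. It had 739, 644 and 669 with BB2-162, against 1086, 1182 and 1196 with BB2-282 and 665, 922 and 678 with hypoxic vehicle. The BB2-282 arrays stood above the others (-0.76 ± 0.12, adjusted p = 5.18e-05). MIR31HG, the long non-coding host gene of MIR31, differed by -1.43 ± 0.12 (adjusted p = 8.72e-08).

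All 30 leading genes were also called without BB2-162 replicate 1, at 0.773 to 1.12 times their full difference. Over all genes the median width of the 95% interval to either side of a difference was 0.25 on the log2 scale, so differences smaller than that were often not detectable with 3 arrays a group.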

How the data were processed

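Total RNA of 15 A549 cultures was hybridised to Affymetrix whole-transcript arrays. The values deposited are linear intensities for 28869 probe sets, made with RMA (background correction, normalisation between arrays and summarising of probes), per the submitters' processing notes; the build, the software and the version of it are not given in the sources used here. No value was missing or 0. Log2 of each deposited intensity was taken here. Array medians lay between 74.91 and 84.6. Precision is limited by how many arrays there are.

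The probe table listed 21062 probe sets, 19310 with 1 symbol and 1752 with several; 7807 were unlisted. Entrez IDs matched 19279 of the 19310 to current names and 31 kept the listed symbol. The probe set with the highest mean stood for each of 18377 genes, a choice that mattered for 685. Genes had to exceed their array's 25th percentile on at least 3 arrays; 2372 did not, and 16005 were tested. limma 3.58.1 in R 4.3.3 fitted group means of all 15 arrays (10 residual degrees of freedom), with eBayes and Benjamini-Hochberg adjustment, called under 0.05. Where 1 group's mean was at or below the dim level, the difference was taken from that level.

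Genes named are the 15 widest rises and 15 widest falls among called genes whose arrays did not overlap, the members with the lowest p (6 at most) of each of 54 gene lists, and 13 HIF and receptor genes. Comparison, members and lists were chosen with earlier results of these data known. The code was tested on simulated data. Alternatives tried were other scalings, dim filters, probe-set choices, eBayes settings, a pseudocount, a replicate block, fits of the 2 groups alone and leaving out each replicate.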

Additional observations from a re-analysis of the deposited data

How the results depend on the processing

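Higher genes made up 43.4% of the genes called on the deposited scale and 32.9% after median centring of the arrays. The count of genes higher with BB2-162 was 1487 with a replicate block in a fit of the 2 groups alone, against 2489, and BB2-162 against hypoxic vehicle gave 3494 calls in a fit of those 2 groups alone and 3672 with a block added, against 5780. The block over all 15 arrays gave 5562 calls between the compounds, against 5734, and 4057 in the 2 groups alone. Deviations of same-numbered BB2-162 and BB2-282 arrays correlated at -0.43, 0.082 and -0.26. Those of BB2-162 and hypoxic vehicle correlated at 0.031, -0.32 and 0.58, and those of BB2-282 and hypoxic vehicle at -0.0385, -0.0568 and -0.31. With 3 arrays per group these values cannot decide whether the replicate numbers pair the samples. Leaving out each replicate in turn gave 4444 to 7025 calls between the compounds, 1715 to 3331 higher, 2665 to 3694 lower and 697 to 908 at least 2-fold, with 38.4% to 47.4% of calls higher. Against vehicle the same runs gave 4067 to 7698 calls for BB2-162 and 1222 to 2393 for BB2-282, against 2176; the lowest came without hypoxic vehicle replicate 1 (1222), BB2-282 replicate 2 (1258) and hypoxic vehicle replicate 2 (1352). The cause of these shifts was not tested, other than that fits of fewer arrays have fewer degrees of freedom. Of 297 genes selected by the naming rule and called, 266 to 297 kept call and direction under the alternatives in which all were tested, and 285 of 285 did with the dim filter at the 50th percentile; none was called in the opposite direction. Of the genes called and given with values above, 5 lost the call in some alternative: H2AC6 in 7, MAD2L1 and ZEB1 in 5 each, EPAS1 in 3, the third being the block in the 2 groups alone (adjusted p = 0.0509), and FOSL2 under that block (adjusted p = 0.0738). Levels near the dim level limit what can be said of small RNAs.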

Other observations

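Stress and secretory genes outside the groups above also differed. ATF4, the transcription factor of the integrated stress response, was higher with BB2-162 by 1.32 ± 0.15 (limma, adjusted p = 2.23e-06), PPP1R15A, which ends that response, by 1.12 ± 0.14 (adjusted p = 8.07e-06) and CEBPB by 1.26 ± 0.093 (adjusted p = 1.13e-08), while the arginine transporter gene SLC7A1 differed by -1.31 ± 0.12 (adjusted p = 1.16e-07). Of 30 genes of that list 10 were higher and 5 lower (with the same counts without BB2-162 replicate 1). Of 13 genes of prostaglandin synthesis and breakdown 5 were higher and 2 lower (5 and 2 without replicate 1); PTGS2, the inducible cyclooxygenase, had 3149, 2119 and 2152 with BB2-162, against 1056, 1057 and 1028 with BB2-282 and 1253, 1627 and 1180.4 with hypoxic vehicle. Those arrays of BB2-162 lay above all others named (1.22 ± 0.14, adjusted p = 2.61e-06). The mucin gene MUC5B had 525, 430.3 and 522 with BB2-162, against 137, 156 and 174 with BB2-282 and 481, 645 and 397 with hypoxic vehicle, and here BB2-282 was the group apart (1.66 ± 0.20, adjusted p = 5.13e-06). The protease inhibitor SLPI followed (1.59 ± 0.16, adjusted p = 3.89e-07).

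Of 18 genes of sterol synthesis and uptake, 6 were lower with BB2-162 than with BB2-282 and none was higher by limma (1 at an unadjusted p under 0.05, and 2 higher and 6 lower after quantile normalisation), at a median of -0.061. Without BB2-162 replicate 1 the counts were 0 higher and 7 lower. Against vehicle, 7 of the 18 were higher with BB2-162 and 9 with BB2-282, at medians of 0.15 and 0.37. SQLE, an epoxidase of sterol synthesis, differed by -1.19 ± 0.14 (adjusted p = 2.41e-06) and HMGCS1, which feeds the mevalonate pathway, by -0.85 ± 0.11 (adjusted p = 6.54e-06). The iron importer gene TFRC was higher by 1.07 ± 0.15 (adjusted p = 1.77e-05), and the protease inhibitor SERPINE2 differed by -1.53 ± 0.11 (adjusted p = 9.32e-09). ABCA3, a lipid transporter of alveolar cells, differed by -1.26 ± 0.11 (adjusted p = 9.29e-08), and POLR2A, the largest subunit of RNA polymerase II, by -0.89 ± 0.15 (adjusted p = 9.76e-05). Of 373 zinc finger genes with a ZNF symbol 40 were higher and 63 lower (40 and 73 without replicate 1). Both are smaller shares than the 15.6% higher and 20.3% lower among all genes.

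Probe sets without a listed gene were tested apart. Of 4174 unlisted ones above the dim level 1188 were higher and 272 lower with BB2-162, with a median difference of 0.21, and of 1517 with several symbols 240 were higher and 238 lower. What the unlisted probe sets measure was not analysed here.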
